A study of Mus musculus with 16 samples.

Results

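The baseline relation between ribosome footprints and mRNA was described in KM_NTC cells, the control line of the study, the line in which *Eif4a2* was not targeted. KM cells were grown from lung tumours of a KM mouse, which carries Rosa26LSL-MYC/LSL-MYC alleles, so they hold an added *MYC*. KM_NTC cells received a lentiviral Cas9 vector with a non-targeting guide RNA, and KM_4A2cr cells, used here for comparison only, received the vector with guides against *Eif4a2*. Both lines came from 1 mouse and were untreated. In all, 4 libraries of ribosome-protected fragments (RPFs) and 4 of cytoplasmic total RNA (Totals) from the same lysates were available for KM_NTC, which makes 8 of the 16 samples of the series. The genes described were the 9249 of 15235 with RPF counts that had at least 10 counts in each of the 8 libraries, and 8669 of them also passed that minimum in the 8 KM_4A2cr libraries. The study calls its replicates individual experiments. The labels do not say what was separate between them, so the p-values measure the spread between these 4 lysates of 1 line.

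Ribosomes protect the stretch of mRNA they sit on from RNase, so the number of protected fragments on a coding sequence (CDS) reflects how many ribosomes it carries. That number is set against the mRNA itself, since mRNAs differ in how often ribosomes start on them. Features known to lower loading include upstream open reading frames (uORFs), the 5' terminal oligopyrimidine (TOP) tract of ribosomal protein mRNAs when growth signals are low, and the iron-responsive element of ferritin mRNAs. Translation of secreted and membrane proteins takes place on the endoplasmic reticulum (ER).

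Footprints per mRNA were taken in each lysate as the log2 ratio of RPF counts on the CDS to Totals counts on the whole transcript, centred so that the median gene was at 0. This ratio has no term for length, since CDS lengths were not used here. Where it matters, the text adds a ratio per mRNA molecule, in which the Totals alone were divided by effective transcript length, and a ratio relative to genes of like transcript length. A gene was called ribosome-rich or ribosome-poor when its fitted ratio was at least 2-fold from the median gene with an adjusted p below 0.05 by edgeR's quasi-likelihood test. Fitted ratios are given with their standard error (SE). The ratios are relative to the median gene, so a change in the loading of all mRNAs would not show.

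Depth ran from 5703271 to 9621848 RPF counts and from 5580726 to 9312622 Totals counts per KM_NTC library. Of 15 epithelial and lung markers 9 were above 1 TPM (transcripts-per-million) in all 4 Totals libraries. Among them were *Krt18*, *Epcam* and the lung marker *Abca3*, the last at 27.6 to 34.6 TPM. The alveolar surfactant genes *Sftpc* and *Sftpb* had 0 counts and the lung lineage factor *Nkx2-1* had at most 0.12 TPM. *Sftpa1*, *Sftpd* and *Lamp3* were also not above 1 TPM in all 4. Of 16 fibroblast, immune and endothelial markers only *Pdgfra* and *Cd68* were above 1 in all 4, and 9 had 0 counts. *Cd68* stood at 219.9 TPM in replicate 4 and at 32.5 to 38.3 in the other 3, and its part in any result was not tested. In such bulk samples fewer cells of a type and less RNA per cell cannot be told apart. The targeted gene *Eif4a2* had 101 to 325 RPF CPM (counts-per-million) in KM_NTC and 49.6 to 285 in KM_4A2cr, with the highest value of each line in replicate 4. In 4 of 4 pairs of the same number it was lower in KM_4A2cr, in RPFs and in Totals alike.

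Footprints followed mRNA only in part. Across the 9249 genes, log2 RPF and Totals counts of a lysate correlated with Pearson coefficients of 0.766 to 0.808, and footprints per mRNA of different lysates with coefficients of 0.929 to 0.959, where genes are not independent replicates and libraries share the same transcripts. Fitted footprints per mRNA spanned -2.29 at the 5th and 1.78 at the 95th percentile on the log2 scale, a 16.8-fold range, with a median SE of 0.13. In all, 1698 genes (18.4%) were ribosome-rich and 2027 (21.9%) ribosome-poor. All the ribosome-rich genes lay above 0 in 4 of 4 lysates, and 2026 of the ribosome-poor genes lay below 0 in 4 of 4. Per mRNA molecule 1875 genes were rich and 2105 poor with the median gene at 0. With library totals in place of the median gene on that same scale, the ratios lay 0.30 higher and 2649 were rich and 1576 poor.

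**Figure D1:**
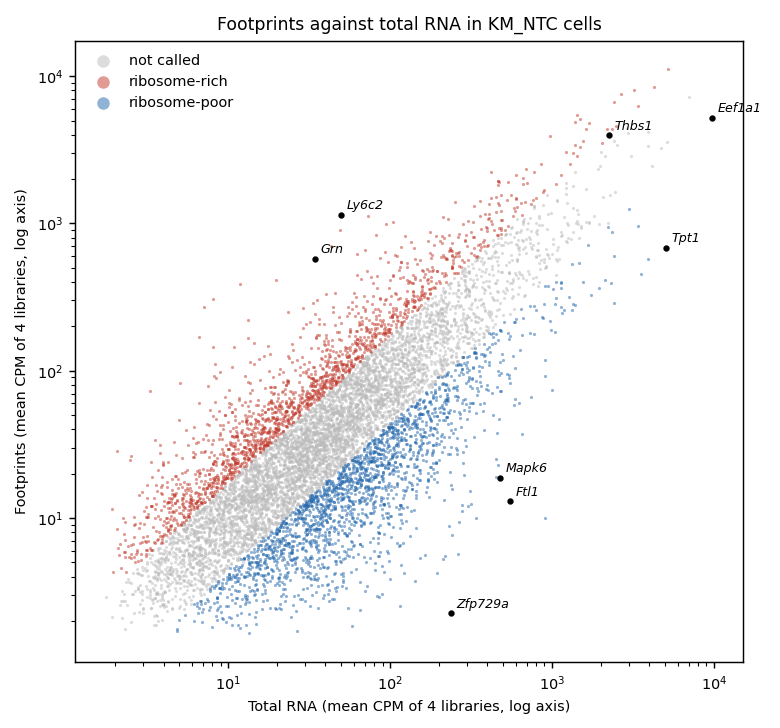
Mean footprint CPM (vertical, log axis) against mean Totals CPM (horizontal, log axis) of each gene over 4 KM_NTC libraries of each kind. Red points are the 1698 ribosome-rich and blue points the 2027 ribosome-poor genes, grey points were not called and black points are named. *Ly6c2* and *Grn* stand far above the diagonal band, and *Ftl1*, *Mapk6* and *Zfp729a* far below it.

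The 10 genes with the highest footprints per mRNA are given first, among called genes with a mean of at least 100 counts of each kind. *Ly6c2* (ENSMUSG00000022584.15), a GPI-anchored surface protein, had ratios of 4.33, 4.66, 4.83 and 5.19 in replicates 1 to 4, and fitted at 4.74 (SE 0.15, adjusted p = 3.85e-12). *Hspg2* (ENSMUSG00000028763.19), the basement membrane proteoglycan perlecan, stood at 4.28, 4.11, 4.05 and 5.1 and fitted at 4.38 (SE 0.17, adjusted p = 1.45e-11). *Grn* (ENSMUSG00000034708.13), which encodes the secreted and lysosomal progranulin, held 551, 383, 557 and 816 footprint CPM in replicates 1 to 4 against 43, 22.3, 27.3 and 45.3 Totals CPM. Its ratios were 3.77, 4.23, 4.58 and 4.54 and fitted at 4.28 (SE 0.14, adjusted p = 6.1e-12). *Muc1* (ENSMUSG00000042784.10), a transmembrane mucin, had 3.72, 4.08, 4.32 and 4.39 with a fit of 4.13 (SE 0.14, adjusted p = 5.58e-12). No lysate lay below 3.72 in these 4 genes.

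*Prkcsh* and *Bcap31*, a subunit of ER glucosidase II and an ER membrane protein, fitted at 3.59 (SE 0.12, adjusted p = 6.58e-12) and 3.57 (SE 0.12, adjusted p = 5.39e-12). The antioxidant enzyme *Prdx6* fitted at 3.66 (SE 0.15, adjusted p = 2.3e-11) and the fatty acid desaturase *Scd3* at 3.55 (SE 0.22, adjusted p = 9.59e-10). The histones *Hist2h3c1* (4.55) and *Hist1h2bq* (4.21) complete the 10. Histones, *Ly6c2* and *Scd3* have near-identical relatives between which reads can be exchanged, so their values are uncertain. Per mRNA molecule the 10 ran from 2.33 in *Bcap31* to 6.89 in *Hspg2*, with *Ly6c2* at 2.40, so their order depends on the scale.

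Of the 10 lowest, 9 are described here, and all but *Nme2* had RPF transcripts of at least 3640 bases. *Mapk6* (ENSMUSG00000042688.17), an atypical MAP kinase, held 49.2, 9.17, 11.4 and 5.26 footprint CPM against 646, 490.2, 415 and 370.4 Totals CPM. It had ratios of -3.62, -5.60, -4.94 and -5.74 and fitted at -4.82 (SE 0.27, adjusted p = 4.18e-10), with replicate 1 well above the other 3. *Cflar* (ENSMUSG00000026031.16), which encodes the caspase-8 inhibitor c-FLIP, had -3.77, -4.22, -4.46 and -4.89 and fitted at -4.31 (SE 0.16, adjusted p = 1.06e-11). *Mbnl1* (ENSMUSG00000027763.14), a splicing regulator, had -4.0, -4.61, -4.46 and -4.42 with a fit of -4.36 (SE 0.13, adjusted p = 3.85e-12), which was -1.99 when Totals were counted on the RPF isoform only, 1 of its 7 isoforms. The RNA-binding protein *Rc3h2* (-4.14), the phosphatase *Ptp4a2* (-3.97), *Lrrc58* (-3.93), *Btbd7* (-3.81) and the transcriptional co-repressor *Nab1* (-3.71) followed. *Nme2* (-4.52), a nucleoside diphosphate kinase, has a close relative in *Nme1* and is uncertain. Per mRNA molecule the 9 ran from -6.35 in *Nme2* to -2.15 in *Lrrc58*, with *Mapk6* at -4.15, so their order also depends on the scale.

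**Figure D2:**
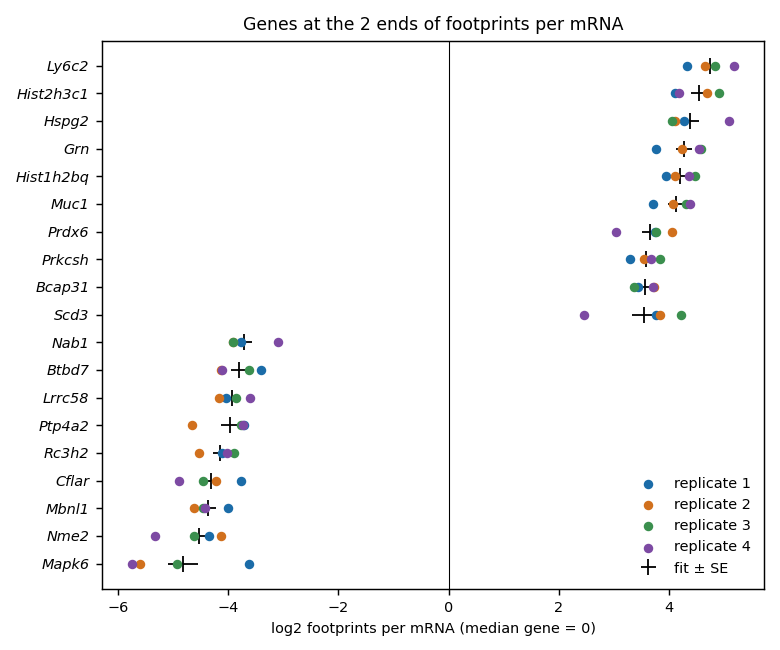
log2 footprints per mRNA (horizontal, median gene at 0) of the 10 highest and 9 of the 10 lowest called genes. Coloured points are the 4 KM_NTC lysates and the black bar is the fit ± SE. No point of the upper 10 lies below 2.47, and none of the lower 9 lies above -3.10.

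Transcript length moved with the ratio, in a direction that depended on the scale. In the shortest of 5 equal bins of genes, with RPF transcripts of 274 to 1539 bases, the median ratio was 0.39 ± 0.05 (SD, n = 4), and in the longest, from 4707 bases up, it was -0.62 ± 0.04. The shortest bin held 529 ribosome-rich and 253 ribosome-poor genes, and the longest 174 and 706. Per mRNA molecule the order was the opposite, from -0.98 ± 0.04 in the shortest to 0.64 ± 0.05 in the longest bin. A longer untranslated region adds Totals counts and no RPF counts, and a longer CDS holds more ribosomes at once, so neither scale alone gives loading per codon. Of the ribosome-rich genes 56.9% were also called rich per molecule, and of the ribosome-poor genes 61.9% poor, while 33 and 13 took the opposite call.

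The isoforms counted also bear on the ratio, since Totals were summed over all isoforms of a gene and RPFs were counted on 1. Of the called genes tested with Totals of the RPF isoform only, 3463 of 3619 kept the side of 0. On that scale the median gene itself moves, and genes with 1 isoform read -0.55 relative to the main value. Among the 4266 genes with 1 isoform, secreted and matrix proteins had a median ratio of 1.33 (n = 19 genes), oxidative phosphorylation subunits 0.74 (n = 37), ribosomal proteins -0.54 (n = 35) and zinc finger proteins -1.06 (n = 80).

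**Figure D3:**
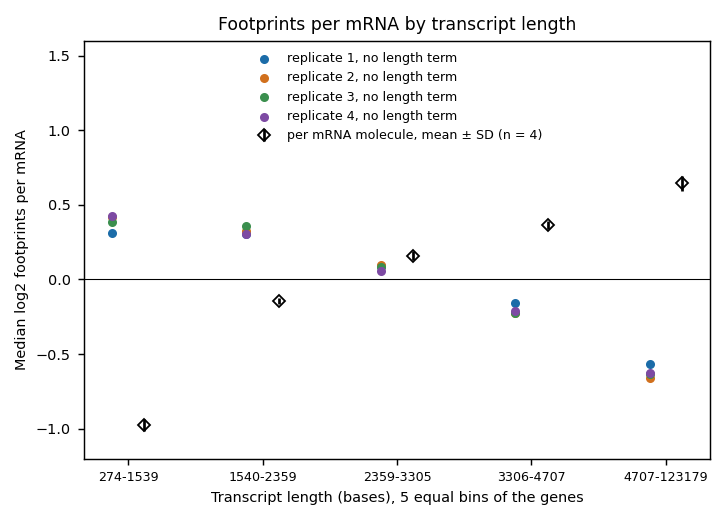
Median log2 footprints per mRNA (vertical) in 5 equal bins of the genes by transcript length in bases (horizontal). Coloured points are the 4 KM_NTC lysates without a length term, and open diamonds the mean ± SD per mRNA molecule. The points fall from 0.39 to -0.62 with length while the diamonds climb from -0.98 to 0.64.

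Gene classes were compared through 27 lists that together hold 1093 of the genes. The median ratio of a list was above 0 in all 4 lysates for 15 lists, below 0 in all 4 for 7, and on both sides for 5. Its SD over the lysates ran from 0.05 to 0.43. For 24 lists the mean stayed on the same side of 0 against genes of like length, and for 20 per mRNA molecule. Counts of called members are to be read against the 18.4% of all genes that were rich and the 21.9% that were poor. Values of lists are the mean of the 4 list medians ± SD (n = 4).

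**Figure D4:**
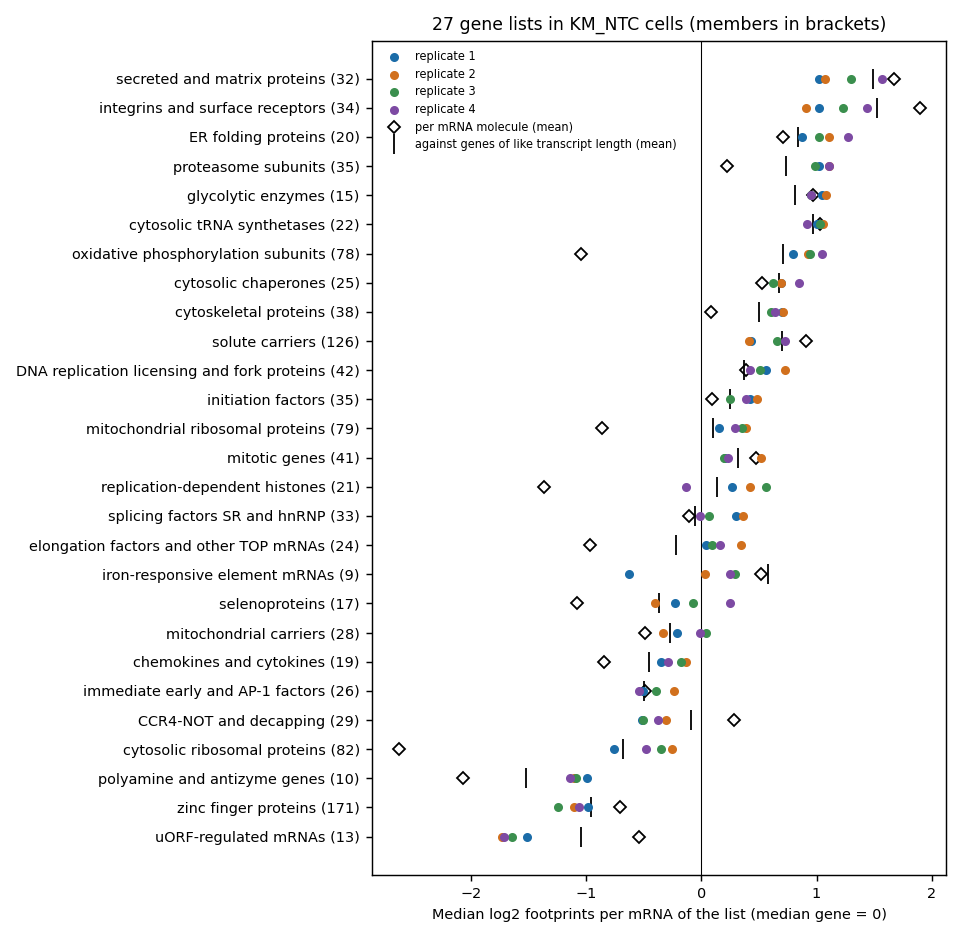
Median log2 footprints per mRNA (horizontal, median gene at 0) of 27 gene lists, with the number of genes in brackets. Coloured points are the 4 KM_NTC lysates, open diamonds the mean per mRNA molecule and vertical ticks the mean against genes of like transcript length. Secreted and matrix proteins lie at the top with a mean of 1.24 and uORF-regulated mRNAs at the bottom with -1.65.

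mRNAs of the cytosolic ribosomal proteins, the structural parts of the ribosome, lay below the median gene. Their median ratio was -0.76, -0.25, -0.35 and -0.48 in replicates 1 to 4, or -0.46 ± 0.22, and 22 of 82 (26.8%) were ribosome-poor and 3 (3.66%) ribosome-rich. The share of poor genes was thus near that of all genes, and the share of rich genes below it. Replicate 1 was the lowest of the lysates and replicate 2 the highest. Per molecule the median was -2.63 ± 0.25, the lowest of the 27 lists, and it was -0.68 ± 0.14 against genes of like length. The 34 genes of the small subunit had a median of -0.67 ± 0.23 with 13 ribosome-poor, and the 46 of the large subunit one of -0.40 ± 0.23 with 9. Both medians come from the same lysates, so their SDs do not measure the spread of the difference, which was not tested. *Rps23* was the lowest at -3.15 (SE 0.13, adjusted p = 2.98e-11) and *Rps4x* the highest at 2.98 (SE 0.12, adjusted p = 2.36e-11). Ribosomal protein genes have many near-identical copies in the genome, so single values are uncertain.

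TOP mRNAs begin with a C followed by a run of pyrimidines. The start windows with the 7 longest runs among ribosomal protein and other TOP genes are shown because they hold such a run near the annotated start. In each of the 7 the run opens before that start, so it was not shown to begin the mRNA. The windows reach from 10 bases before to 20 after the annotated start (RefSeq, GRCm38.p6, gene strand, 5′ to 3′), with the longest run of C and T that opens with C in capitals.
Rpl27a: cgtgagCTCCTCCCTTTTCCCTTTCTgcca
Rpl35: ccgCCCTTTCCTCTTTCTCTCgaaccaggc
Rpl15: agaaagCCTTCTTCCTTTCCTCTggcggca
Rpl7a: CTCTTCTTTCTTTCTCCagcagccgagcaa
Fau: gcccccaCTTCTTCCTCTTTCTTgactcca
Rack1: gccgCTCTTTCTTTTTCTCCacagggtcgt
Eif3f: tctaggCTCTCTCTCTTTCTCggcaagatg
The windows lie at chr7:109519185-109519214 (plus strand, *Rpl27a*), chr2:39005112-39005141 (minus strand, *Rpl35*), chr14:18270967-18270996 (minus strand, *Rpl15*), chr2:26910797-26910826 (plus strand, *Rpl7a*), chr19:6057937-6057966 (plus strand, *Fau*), chr11:48800350-48800379 (plus strand, *Rack1*) and chr7:108934405-108934434 (plus strand, *Eif3f*). The first 6 belong to ribosomal proteins and had fitted ratios of -0.44, -0.67, -0.50, -0.43, -0.67 and -0.27, whereas *Eif3f*, a subunit of initiation factor eIF3, stood at 2.75 (SE 0.15, adjusted p = 2.72e-10).

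A run of at least 8 such bases on the gene strand was present in 8.68% of all 32851 start windows and for 10.7% of the 7408 genes described that had a window. Of the 62 ribosomal protein genes with a window, 26 (41.9%) had one. Their median ratio was -0.51 ± 0.18 with the run and -0.45 ± 0.22 without it. In replicates 1 to 4 it was -0.78, -0.40, -0.39 and -0.48 with the run, and -0.73, -0.20, -0.37 and -0.49 without it. Against genes of like length the medians were -0.79 ± 0.17 and -0.58 ± 0.15. Both groups come from the same lysates, so these SDs do not measure the spread of a difference, and no test was run. Over all genes the medians were -0.12 ± 0.02 with and -0.01 ± 0.01 without the run. Annotated starts can miss the start used in these cells, and a match of letters is not a functional tract.

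The list of elongation factors and other TOP mRNAs was split, with 5 of 24 genes ribosome-rich and 5 ribosome-poor. Its median of 0.16 ± 0.13 turned below 0 on the other scales, at -0.97 per molecule and -0.22 against genes of like length. *Tpt1*, which encodes the growth-related protein TCTP, had -3.08, -2.41, -2.49 and -2.71 and fitted at -2.67 (SE 0.14, adjusted p = 3.07e-10), and the poly(A)-binding protein gene *Pabpc1* had -1.96, -1.59, -2.24 and -2.0 with a fit of -1.95 (SE 0.12, adjusted p = 1.35e-09). The elongation factors *Eef1a1* (-0.69) and *Eef2* (-0.32) had lower values than the median gene but did not reach 2-fold, and *Eef2* was at -0.08 per molecule. Initiation factors had a median of 0.39 ± 0.10 with 9 of 35 rich and 5 poor. *Eif1*, the factor that guards start codon choice, was the highest at 2.64 (SE 0.11, adjusted p = 2.3e-11), and *Eif4ebp2*, a repressor of the cap-binding protein eIF4E, the lowest at -3.77 (SE 0.14, adjusted p = 1.18e-11). The paralogous helicases *Eif4a1* and *Eif4a2* had ratios of 0.76, 1.03, 0.96 and 1.08 and of -0.98, -0.75, -1.15 and -0.22, which do not overlap, and stood at 0.34 and -0.88 per molecule. On the RPF isoform only, 1 of 2 isoforms for *Eif4a2*, they were closer together, at 0.41 and -0.21. The aminoacyl-tRNA synthetases, which charge tRNAs, were all above the median gene, from *Kars* at 0.49 to *Vars* at 2.46, with 13 of 22 (59.1%) ribosome-rich and 0 poor. Their median was 1.00, 1.06, 1.03 and 0.92 in the 4 lysates, and 1.03 per molecule and 0.97 against genes of like length.

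mRNAs known to be regulated by uORFs had the lowest median ratio of the 27 lists without a length term. Their medians were -1.51, -1.73, -1.65 and -1.71 in the 4 lysates, and 8 of 13 genes (61.5%) were ribosome-poor and 0 rich. The list stood at -0.55 per molecule and -1.04 against genes of like length, and polyamine genes were lower on both scales. Per molecule several other lists were lower too, from ribosomal proteins at -2.63 to zinc finger proteins at -0.71. *Atf4*, the transcription factor of the integrated stress response, held 58, 83.5, 51.9 and 46.8 footprint CPM against 251, 409.9, 370.5 and 263 Totals CPM. Its ratios were -2.02, -2.16, -2.60 and -2.11 and fitted at -2.22 (SE 0.12, adjusted p = 2.04e-10), and -2.89 per molecule. *Uhmk1*, a kinase with a U2AF homology motif, was the lowest of the list at -4.51 (SE 0.13, adjusted p = 3.46e-12), and *Ifrd1*, a transcriptional coregulator, the highest called at -1.44 (SE 0.13, adjusted p = 7.33e-08). The other 5 genes of the list were not called, and *Slc7a1*, an arginine transporter, was the highest at 0.97.

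Genes of polyamine synthesis and its antizyme control had medians of -0.99, -1.10, -1.09 and -1.14, with 6 of 10 ribosome-poor and 0 rich, and the list stood at -2.07 per molecule and -1.52 against genes of like length. *Odc1*, the ornithine decarboxylase that starts the pathway, had -1.95, -2.70, -2.36 and -2.13 and fitted at -2.29 (SE 0.13, adjusted p = 3.84e-10). *Amd1*, which makes the aminopropyl donor and is also in the uORF list, fitted at -2.18 (SE 0.13, adjusted p = 8.51e-10), and *Azin1*, which encodes the antizyme inhibitor, at -3.06 (SE 0.13, adjusted p = 4.35e-11). The polyamine and uORF lists thus overlap, and their low medians are not independent of each other. *Oaz1*, the antizyme whose reading requires a frameshift, stood at -0.85 (SE 0.11, adjusted p = 4.36e-06) and missed the 2-fold limit, while *Oaz2* passed it at -1.06 (SE 0.13, adjusted p = 1.63e-06). *Srm*, the spermidine synthase, was the highest at 0.73.

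The iron-responsive mRNAs, bound by iron regulatory proteins, differed widely among themselves. The ferritin chains *Ftl1* and *Fth1*, with the element in the 5′ untranslated region, had ratios of -7.18, -4.39, -4.54 and -5.28 and of -2.95, -0.51, -1.78 and -0.79 in replicates 1 to 4. They fitted at -5.22 (SE 0.31, adjusted p = 8.37e-10) and -1.49 (SE 0.28, adjusted p = 0.000197), and both were lowest in replicate 1. The transferrin receptor *Tfrc*, with elements in the 3′ untranslated region, had 0.58, 0.86, 0.78 and 1.17 and fitted at 0.85 (SE 0.13, adjusted p = 2.63e-05). The iron importer *Slc11a2* was ribosome-rich at 1.5 (SE 0.10, adjusted p = 3.97e-09). The list as a whole had 1 rich and 3 poor of 9 and a median of -0.02 ± 0.43, below 0 in replicate 1 only, and 0.52 per molecule and 0.57 against genes of like length. The third poor gene was *Cdc14a*, a phosphatase, at -2.56. Ferritins have many processed copies, so their levels are uncertain. Selenoproteins, in which a UGA codon is read as selenocysteine, spread from *Gpx1* at -3.99 (SE 0.24, adjusted p = 9.58e-10) to *Txnrd2* at 1.32 (SE 0.15, adjusted p = 1.22e-06), with 3 rich and 5 poor of 17.

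mRNAs of secreted and surface proteins stood at the upper end. Secreted and matrix proteins had medians of 1.02, 1.07, 1.3 and 1.57 in replicates 1 to 4, with 23 of 32 (71.9%) ribosome-rich and 0 poor. *Thbs1*, which encodes the matrix glycoprotein thrombospondin-1, was the lowest called member at 1.02 (SE 0.14, adjusted p = 6.42e-06) and held 3179, 3544, 4522 and 4640 footprint CPM in replicates 1 to 4 against 2234, 1914, 2371 and 2477 Totals CPM. Integrins and surface receptors had medians of 1.03, 0.91, 1.23 and 1.44 with 20 of 34 (58.8%) rich and 1 poor. *Lrp1*, an endocytic receptor, was the highest at 4.17 (SE 0.17, adjusted p = 2.16e-11), and the TGF-beta receptor *Tgfbr1*, with -1.35, -1.39, -1.37 and -0.76, the lowest. In both lists replicate 4 had the highest median. The secreted list stood at 1.67 per molecule and 1.49 against genes of like length, and the receptor list at 1.9 per molecule and 1.52 against genes of like length.

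ER folding proteins, the chaperones and disulphide isomerases of the lumen, had a median of 1.07 ± 0.17 with 12 of 20 rich. *Erp44* was the highest at 2.24 (SE 0.10, adjusted p = 5.37e-11), and 1 member, *Erp29*, lay far outside the list with ratios of -4.74, -4.35, -4.34 and -5.1 and -3.92 on the RPF isoform only. Solute carriers of other membranes had a median of 0.56 ± 0.16 with 40 rich and 12 poor of 126, from the chloride cotransporter family member *Slc12a9* at 3.13 (SE 0.12, adjusted p = 1.45e-11) to the zinc transporter *Slc30a4* at -3.45 (SE 0.14, adjusted p = 2.55e-11). The SLC25 carriers, which insert into the inner mitochondrial membrane, had 3 rich and 9 poor of 28 and a median of -0.13 ± 0.18. The phosphate carrier *Slc25a3* was the highest at 1.54 (SE 0.13, adjusted p = 2.5e-08) and the NAD carrier *Slc25a51* the lowest at -3.52 (SE 0.18, adjusted p = 1.64e-10).

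Among housekeeping machines, proteasome subunits had medians of 1.02, 1.11, 0.98 and 1.11, with 19 of 35 (54.3%) ribosome-rich and 0 poor. *Psmb2*, a core subunit, had 3.93, 3.85, 3.98 and 3.89 and fitted at 3.92 (SE 0.11, adjusted p = 2.96e-12), and *Psmd7*, a lid subunit, was the lowest called at 1.04. The list stood at 0.22 per molecule and 0.74 against genes of like length. Nuclear-encoded subunits of oxidative phosphorylation had a median of 0.93 ± 0.10 with 35 of 78 (44.9%) rich and 1 poor, from the complex I subunit *Ndufb3* at 2.77 (SE 0.13, adjusted p = 6.03e-11) to *Cox7a2l* at -1.13 (SE 0.11, adjusted p = 1.23e-07), a factor of respiratory supercomplexes. Their transcripts are short, with a median of 731 bases, and the sign depended on the scale, at -1.05 per molecule and 0.71 against genes of like length. Mitochondrial ribosomal proteins had a median of 0.30 ± 0.11 with 14 rich and 5 poor of 79, and -0.86 per molecule and 0.10 against genes of like length. *Mrps18b* was their highest at 1.71 and *Mrps26* their lowest at -2.82.

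Cytosolic chaperones had a median of 0.71 ± 0.10 (10 rich and 1 poor of 25). The prefoldin subunit *Pfdn2* was the highest at 3.12 (SE 0.13, adjusted p = 2.05e-11), and its partner *Pfdn5*, also a TOP mRNA, the lowest at -1.47, which was -0.01 on the RPF isoform only. Glycolytic enzymes had a median of 1.01 ± 0.07 with 6 rich and 2 poor of 15, and the poor were *Eno1* at -2.91 (SE 0.12, adjusted p = 1.78e-11) and *Gapdh* at -2.23, 2 genes with many near-identical copies. *Aldoc*, an aldolase, was the highest at 1.95. Cytoskeletal proteins had a median of 0.66 ± 0.05 and 11 rich and 5 poor of 38, from the tubulin *Tuba1b* at 2.14 to the tropomyosin *Tpm3* at -4.46, which was -3.38 on the RPF isoform only. Tubulin genes share long identical stretches, so the value of *Tuba1b* is uncertain.

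Zinc finger genes were the largest list at the lower end. Zinc finger proteins, mostly DNA-binding repressors, had medians of -0.99, -1.11, -1.25 and -1.06 in the 4 lysates, with 95 of 171 (55.6%) ribosome-poor and 2 (1.17%) rich. They stood at -0.71 per molecule and -0.96 against genes of like length. *Zfp729a* was the lowest at -6.50 (SE 0.14, adjusted p = 4.32e-13) and has close relatives in the genome, and *Zfp296* the highest at 1.29 (SE 0.22, adjusted p = 7.78e-05). Immediate early and AP-1 factors were mixed, with 4 rich and 8 poor of 26 and a median of -0.42 ± 0.14. The Fos-related factor *Fosl1* had 2.0, 2.56, 2.57 and 2.17 and fitted at 2.34 (SE 0.13, adjusted p = 2.69e-10), whereas *Btg1*, an antiproliferative factor, fitted at -2.46 (SE 0.11, adjusted p = 6.78e-11) and at 0.38 on the RPF isoform only.

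Genes of deadenylation and decapping had a median of -0.43 ± 0.10 with 2 rich and 9 poor of 29. The list stood at 0.29 per molecule and -0.09 against genes of like length. *Edc4*, a decapping scaffold, was the highest at 1.86 (SE 0.11, adjusted p = 7.92e-10) and the decapping enzyme *Dcp2* the lowest at -3.69 (SE 0.16, adjusted p = 3.04e-11), which was 0.12 on the RPF isoform only. SR and hnRNP splicing factors spanned *Srsf2* at -1.87 (SE 0.13, adjusted p = 4.83e-09) to *Hnrnpd* at 2.53 (SE 0.17, adjusted p = 2.13e-09), with 6 rich and 4 poor of 33. Their median was 0.18 ± 0.18, and -0.11 per molecule and -0.06 against genes of like length.

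The lists of DNA replication and mitotic genes lay a little above the median gene. Their shares of rich genes, 16.7% and 19.5%, were near that of all genes. Their shares of poor genes, 4.76% and 4.88%, were below it. DNA replication proteins had a median of 0.55 ± 0.13 with 7 rich and 2 poor of 42, led by the licensing factor *Cdt1* at 2.63 (SE 0.17, adjusted p = 2.03e-09), with the polymerase alpha subunit *Pola2* the lowest at -2.59 (SE 0.26, adjusted p = 2.5e-07). Mitotic genes had a median of 0.29 ± 0.16 with 8 rich and 2 poor of 41. *Cdc20*, an activator of the anaphase-promoting complex, was the highest at 1.6, and the kinetochore protein *Cenpf*, with an RPF transcript of 11130 bases, was the lowest at -1.64, and at 0.51 per molecule. Of 53 replication-dependent histones only 21 passed the count minimum, with 7 rich, 2 poor and medians of 0.27, 0.42, 0.56 and -0.14, below 0 in replicate 4 only. The histone list stood at -1.37 per molecule and 0.14 against genes of like length, and at -0.27 on the RPF isoform only. *Hist1h2ab* was the lowest at -2.03. Chemokines and cytokines had 3 rich and 4 poor of 19 and a median of -0.24 ± 0.10, from *Cx3cl1* at -2.81 to *Tgfb1* at 1.87. *Cx3cl1* had 10 to 15 RPF counts, on a transcript of 377 bases that is 1 of its 3 isoforms. That isoform had fewer than 10 Totals counts in at least 1 library, so the value of *Cx3cl1* is uncertain.

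A few genes of interest to the study were fixed by name. The endogenous mouse *Myc*, which is not the human transgene at Rosa26 but could take transgene reads that match it, had ratios of 1.05, 1.83, 1.55 and 2.19 and fitted at 1.65 (SE 0.15, adjusted p = 6.77e-08), with 346 ± 39 footprint and 128 ± 22.6 Totals CPM. It stood at 3.58 on the RPF isoform only. *Mtor*, the growth kinase, fitted at 1.03 (SE 0.11, adjusted p = 4.92e-07). *Cdkn1a*, the cell cycle inhibitor p21, was near the median gene at 0.28 (SE 0.12, adjusted p = 0.0469), at -0.51 per molecule and at 1.01 on the RPF isoform only. *Ebag9* stood at -0.06 (SE 0.15, adjusted p = 0.753) and at 0.96 on the RPF isoform only.

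The shares of all footprints and of all mRNA molecules held by the lists add the weight of abundant genes. Ribosomal protein genes took 30.7 ± 4.72% of mRNA molecules (Totals counts per effective length, SD, n = 4) but 5.38 ± 0.584% of footprints. Without the length term they took 10.2 ± 2.04% of Totals counts. Secreted and matrix proteins held 1.81 ± 0.216% of molecules and 6.03 ± 1.46% of footprints, integrins and surface receptors 1.35 ± 0.143% and 5.09 ± 0.745%, and ER folding proteins 1.19 ± 0.246% and 3.3 ± 1.07%. Oxidative phosphorylation subunits held 1.97 ± 0.142% and 1.14 ± 0.111%, and polyamine genes 0.129 ± 0.036% and 0.0422 ± 0.0118%. The uORF-regulated mRNAs held 0.134 ± 0.0228% of molecules and 0.178 ± 0.0361% of footprints. In replicates 1 to 4 their footprint share was 0.179, 0.209, 0.197 and 0.127%, against 0.130, 0.159, 0.141 and 0.105% of molecules. The footprint share was thus the higher in each lysate. In 14 of the 27 lists the footprint share exceeded the share of molecules. Short coding sequences hold fewer ribosomes per molecule at the same density, which this comparison does not correct.

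**Figure D5:**
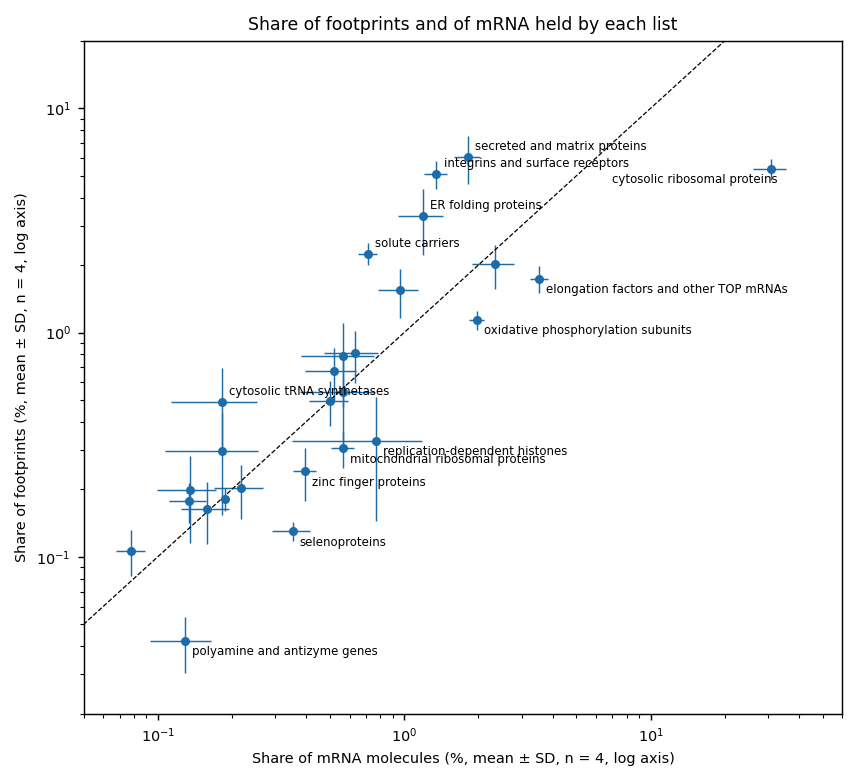
Share of footprints (vertical, %, log axis) against share of mRNA molecules (horizontal, %, log axis) of the 27 lists in KM_NTC cells, as mean ± SD over 4 libraries of each kind. The dashed line marks equal shares. Ribosomal proteins lie far below it, at 30.7% of mRNA and 5.38% of footprints, and integrins and surface receptors above it, at 1.35% and 5.09%.

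The same ratios were taken in KM_4A2cr cells from 8 other libraries, grown from the same parental cells, to see whether the baseline is particular to the control line. There 1449 of 8783 genes (16.5%) were ribosome-rich and 1823 (20.8%) ribosome-poor. Of the genes that passed the minimum in both lines, 84.5% of the 1610 rich in KM_NTC and 94.98% of the 1433 rich in KM_4A2cr were rich in both, 90.0% of the 1864 poor in KM_NTC and 94.4% of the 1777 poor in KM_4A2cr were poor in both, and 0 had opposite calls. Secreted and matrix proteins had a median of 1.24 ± 0.22 in KM_4A2cr, uORF-regulated mRNAs -1.41 ± 0.11, zinc finger proteins -1.07 ± 0.15 and ribosomal proteins -0.64 ± 0.33. Of the 27 lists 24 had a mean on the same side of 0 in both lines. The others were iron-responsive mRNAs at 0.61 ± 0.53 in KM_4A2cr, selenoproteins at 0.25 ± 0.24 and mitochondrial carriers at 0.05 ± 0.15, and in KM_NTC the mean of each lay within its SD of 0.

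The difference itself was tested as an interaction of line and kind of library, and 99 of 8669 genes (1.14%) passed an adjusted p of 0.05 in edgeR, 84 of them with a higher ratio in KM_4A2cr. The largest difference among them was 0.97 on the log2 scale, and 73 were ribosome-poor in KM_NTC. The KM_NTC ratio that makes a gene poor also enters the difference, so this count is a description and favours higher values in KM_4A2cr. *Amd1* had the ratios -2.69, -2.02, -2.09 and -1.86 in KM_NTC and a fit of -1.35 in KM_4A2cr, a difference of 0.83 (SE 0.10, adjusted p = 0.000283). This count was not stable. With the replicate block 1277 genes had an unadjusted p below 0.05. The fit without the block also drops the lysate terms that pair RPFs with Totals. In it 21 genes had an unadjusted p below 0.05, and the count of calls in edgeR was 0. With the block it was 1, 0, 1 and 507 without replicates 1, 2, 3 and 4, where 1015 genes had an unadjusted p below 0.05 without replicate 2. The differences between lines are therefore given as values that rest on the block and on single replicates.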

How the data were processed

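RPFs of KM_NTC and KM_4A2cr cells were deposited as whole-number counts per transcript. The authors had trimmed reads with cutadapt 1.18 and removed rRNA and tRNA reads. They aligned the rest with BBmap to the most abundant GENCODE vM27 protein-coding transcript of each gene. Duplicates were collapsed with UMI-tools 1.0.1, and fragments were summed over the CDS without a stretch of codons at each end, a larger part of a short CDS. How reads with several matches were placed is not given in the sources used here. For Totals the authors deposited RSEM 1.3.3 expected counts and TPM per isoform after alignment with Bowtie2 2.3.5.1. Expected counts were summed per gene and rounded, effective lengths served the values per molecule, and the deposited TPM was used only to check the join. Marker TPM was recomputed from gene counts and effective lengths.

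Ratios were fitted with edgeR 4.0.16 in R 4.3.3 (DESeq2 1.42.0 as an alternative) with replicate number and kind of library as terms, after centring each lysate on its median gene, with Benjamini-Hochberg adjustment over all genes. Ratios of single lysates used a pseudocount of 0.5. The script was first tested on simulated data. The paper took both kinds of RNA from a lysate, and RPFs and Totals of the same number in the labels were taken as 1 lysate. Their deviations from the means correlated at 0.829, 0.802, 0.632 and 0.834 for replicates 1 to 4. A length-corrected ratio had been planned as the main value. CDS lengths were not used here, so the planned value without length became the main one. Ratios against genes of like length used 20 bins of transcript length.

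The genes, lists and tests were chosen with earlier results of these data known. Named are the 10 highest and 10 lowest called genes with the same sign in 4 lysates and a mean of 100 counts of each kind, the highest and lowest called member of each list, and a set fixed by name. Results for 2 genes that the rule names are not reported here. *Kars*, *Slc7a1*, *Srm*, *Gapdh* and *Cdc14a* were named after their values were seen. Symbols were matched by gene ID for 15218 of 15235 genes and start windows by symbol for 7408 of 9249.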

Additional observations from a re-analysis of the deposited data

Results flagged for a closer look

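One lysate lay apart from the other 3 in 5 of 113 sets of 4 ratios looked at by Dixon's test, where chance alone flags about 1 set in 20. Replicate 2 stood out for the median of mitotic genes, at 0.52 against 0.19 to 0.23 in the others, and for *Ptp4a2*, at -4.66 against -3.77 to -3.71. Replicate 4 stood out for the tRNA synthetase *Hars* at 1.36, the receptor *Tgfbr1* at -0.76 and the phosphate carrier *Slc25a3* at 1.00. None of these lysates changed the side of 0.

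For 6 named genes footprints per mRNA differed between KM_4A2cr and KM_NTC in edgeR's interaction test, and all 6 were ribosome-poor in KM_NTC and higher in KM_4A2cr. Most were named for low KM_NTC ratios, which also enter the difference and favour that direction. The difference on the log2 scale was 0.91 for *Mapk6* (adjusted p = 0.0035), 0.55 for *Nme2* (adjusted p = 0.0446), 0.54 for *Nab1* (adjusted p = 0.0387), 0.59 for *Uhmk1* (adjusted p = 0.0419), 0.62 for *Slc30a4* (adjusted p = 0.00365) and 0.83 for *Amd1* (adjusted p = 0.000283). Without the replicate block and the lysate terms 0 genes passed in edgeR, and 21 had an unadjusted p below 0.05.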

How the results depend on the processing

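In KM_NTC 3725 (1698 rich, 2027 poor) genes were called. The count was 3730 (1699 rich, 2031 poor) with DESeq2, 3633 (1642 rich, 1991 poor) without the replicate block, 3747 (1800 rich, 1947 poor) with TMM and 3668 to 3820 with 1 replicate left out. With other minimums it was 2310 (1057 rich, 1253 poor) at 50 counts and 4962 (2249 rich, 2713 poor) at 10 counts in 4 of 8 libraries, with genes of 1 isoform 1623 (709 rich, 914 poor), and at limits of 1.5-fold and 4-fold 5734 (2811 rich, 2923 poor) and 986 (298 rich, 688 poor). With the other minimums and with genes of 1 isoform, fewer or more genes were tested. The planned value without length is the main one, and a CDS length correction was not run. Per molecule it was 3980 (1875 rich, 2105 poor), and with library totals in place of centring on that scale 4225 (2649 rich, 1576 poor), where the median gene lay at 0.30 on the log2 scale. In KM_4A2cr, 3272 genes were called and 3068 without the replicate block.

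The difference between lines had 99 calls, 0 without the replicate block and the lysate terms, and 0 to 507 with 1 replicate left out. The cause was not tested. Leaving out a replicate turned the median of 1 of the 27 lists, iron-responsive mRNAs, which was at 0.19 without replicate 1.

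Medians of 7 lists turned sign per molecule. They also did so with library totals on that scale for elongation factors and other TOP mRNAs (-0.97 and -0.66), mitochondrial ribosomal proteins (-0.86 and -0.56), oxidative phosphorylation subunits (-1.05 and -0.75), deadenylation and decapping genes (0.29 and 0.59), histones (-1.37 and -1.07) and iron-responsive mRNAs (0.52 and 0.82), whereas splicing factors turned per molecule only (-0.11). The TOP list also turned in genes with 1 isoform (-0.32) and against like length (-0.22), both added after seeing the data, as did splicing factors (-0.26 and -0.06). Iron-responsive mRNAs turned against like length (0.57), at 50 counts (0.72), at 10 counts in 4 of 8 libraries (0.09), with TMM (0.026) and on the RPF isoform only (0.29), where selenoproteins (0.22) and histones (-0.27) also turned. At 50 counts selenoproteins (0.002) turned, and chemokines at 50 counts (0.014). Of the named genes, *Btg1*, *Dcp2* and *Ebag9* turned on the RPF isoform only (0.38, 0.12 and 0.96), *Cenpf* and *Cdkn1a* per molecule (0.51 and -0.51), and *Cenpf*, *Eef2* and *Cdkn1a* with library totals on that scale (0.81, 0.23 and -0.21). *Ebag9* was also at 0.052 with the looser minimum and 0.10 without replicate 3. Genes near 10 counts have imprecise ratios, and no loading per codon could be given.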
